A study of Mus musculus with 6 samples.

Results

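Gamma-secretase is described here through 6 of its subunit genes, Aph1a, Aph1b, Aph1c, Psen2, Ncstn and Psenen, of the 55487 genes in the count table. They were chosen by symbol because Aph1b was lower in all 3 libraries of one genotype, and the question was whether its paralogs or partners differed in the opposite direction. Each symbol had 1 row in the table. RNA-seq was performed on colon epithelial cells (IECs) of DSS-treated mice. DSS, dextran sodium sulphate, injures the colonic epithelium and causes colitis. Both genotypes carried floxed Nsd2 alleles and both received DSS. The 3 Nsd2 f/f libraries, titled WT with the genotype label NSD2-FF, came from mice without Cre, and the 3 Nsd2 Vil-KO libraries from mice in which Cre under the Villin promoter deletes Nsd2 in intestinal epithelium. No library from untreated mice was analysed here. The labels give neither age nor sex, and do not say whether the libraries of a group came from separate animals, so p-values measure the spread between these libraries.

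Gamma-secretase is an intramembrane protease that cuts the membrane stub left after a surface protein has lost its ectodomain, and it releases the intracellular domain of Notch receptors. The complex holds a presenilin as catalytic subunit, nicastrin, an APH1 scaffold and PEN-2. In the intestine its cut of Notch keeps progenitors from the secretory fate, and its pharmacological inhibition is known to turn crypt cells into goblet cells. Mice have a duplicated APH1B gene, so that Aph1b and Aph1c lie side by side, while Aph1a encodes the scaffold of most complexes. Transcript counts do not measure the assembly or the activity of the protease.

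On GRCm38, Aph1b (ENSMUSG00000032375) lies on the minus strand at chr9:66775202-66795490 and Aph1c (ENSMUSG00000053040) on the same strand at chr9:66814994-66834726, 19.5 kb away. Aph1a (ENSMUSG00000015750) lies on the plus strand at chr3:95893969-95898288, and Psen2 (ENSMUSG00000010609) on the minus strand at chr1:180227004-180263438. Ncstn (ENSMUSG00000003458) and Psenen (ENSMUSG00000036835) are on the minus strand too, at chr1:172066013-172082795 and chr7:30561863-30563627. All 6 are annotated as protein-coding. The coding sequences of Aph1b and Aph1c were 96.2% identical over 771 aligned bases, against 63.8% for Aph1b and Aph1a. The longest run shared by transcripts of Aph1b and Aph1c was 341 bases, within the coding sequence, and 4.28% of the 150-base stretches of Aph1b transcripts also occurred in Aph1c. A read pair from such a stretch could be counted on either gene, so the values of both are uncertain where the counting split them. Of all 60-base coding stretches within 1 exon, the one with the most differences between the paralogs lies in exon 1. The following lines give coding bases 5 to 64 of both genes (GRCm38 exon 1, chr9:66795302-66795361 and chr9:66834535-66834594, minus strand), with the 11 differing bases in capitals.
Aph1b exon 1: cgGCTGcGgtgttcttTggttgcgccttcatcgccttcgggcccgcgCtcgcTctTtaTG
Aph1c exon 1: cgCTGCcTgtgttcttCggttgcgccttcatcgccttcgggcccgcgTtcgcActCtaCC

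The stretches upstream of both start sites are shown because these neighbouring genes differed widely in level. They were taken from RefSeq promoters (GRCm38.p6) and trimmed to the part before both the RefSeq and the GENCODE start. This left 183 bases for Aph1b (chr9:66795491-66795673, minus strand) and 230 bases for Aph1c (chr9:66834727-66834956, minus strand). Capitals mark the GC box, searched as GGGCGG or its reverse complement CCGCCC.
Aph1b upstream: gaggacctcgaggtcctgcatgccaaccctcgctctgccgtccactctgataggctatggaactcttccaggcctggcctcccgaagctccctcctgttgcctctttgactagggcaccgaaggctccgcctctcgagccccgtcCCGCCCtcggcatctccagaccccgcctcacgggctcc
Aph1c upstream: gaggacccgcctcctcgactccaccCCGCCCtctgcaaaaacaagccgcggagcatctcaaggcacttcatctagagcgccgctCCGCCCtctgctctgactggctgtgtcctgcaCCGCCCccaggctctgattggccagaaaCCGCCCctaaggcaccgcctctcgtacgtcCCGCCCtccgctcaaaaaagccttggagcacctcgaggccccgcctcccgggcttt
The Aph1b stretch held 1 GC box and the Aph1c stretch 5. Of 32851 RefSeq promoters cut to the same length, 21.5% held at least 1 GC box at the length of Aph1b, and 1.33% held at least 5 at the length of Aph1c. The CCAAT box, searched as CCAAT or ATTGG, was found 0 times in the Aph1b stretch and 1 time in that of Aph1c, against 25.5% and 32.2% of promoters with at least 1 at these lengths. The 2 stretches were 72.0% identical over 175 aligned bases. These matches describe the letters and nothing more.

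Between 15439123 and 20350539 reads per library were counted on genes. Values of single libraries are listed in the order of replicates 1, 2 and 3. CPM are reads scaled to one library size by edgeR's TMM factors, and a floor of 3 counts equalled 0.146 to 0.242 CPM, for counting error only. Nsd2, the deleted gene, measured 47.9, 51.2 and 24.6 CPM in the Nsd2 f/f libraries and 24.2, 10.4 and 20.8 CPM in the Nsd2 Vil-KO group. The groups did not overlap, but Nsd2 f/f replicate 3 lay next to Nsd2 Vil-KO replicate 1. Nsd2 f/f replicate 3 and Nsd2 Vil-KO replicate 2 stood apart from the rest. Across genes, their mean Spearman correlation with the other 4 libraries was 0.933, against 0.981 among those 4. They alone held more than 100 counts of Xist (4296 and 3684), against 1 to 5 in the other 4. Those 4 are called the libraries without Xist below. Nsd2 f/f replicate 3 also had 19.6% of its counts on mitochondrial genes, against 5.51% to 9.13% in the other 5. Values without both are therefore given beside the results for the subunits and for the list genes that passed. The labels were kept, although these counts cannot tell whether that of Nsd2 f/f replicate 3 is right. The summed level of 9 epithelial markers was 11835 to 18207 CPM in Nsd2 f/f and 13520 to 15677 CPM in Nsd2 Vil-KO, so the defining genes of epithelium were present in each library.

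Aph1b, whose lower level in Nsd2 Vil-KO chose the set, had 142, 89 and 148 reads in the Nsd2 f/f libraries. The Nsd2 Vil-KO libraries held 30, 10 and 34 reads. This was 7.04, 5.26 and 11.96 CPM against 1.46, 0.555 and 1.74 CPM, so the groups did not overlap. The mean of Nsd2 f/f was 8.08 ± 3.47 CPM (SD, n = 3), and that of Nsd2 Vil-KO was 1.25 ± 0.62 CPM (SD, n = 3). The fitted log2 fold change was −2.67 (SE 0.53, 95% interval −3.92 to −1.42), given as a description without a test, since this contrast selected the gene. The highest value lay in Nsd2 f/f replicate 3 and the lowest in Nsd2 Vil-KO replicate 2, the libraries that stood apart. In the other 4 libraries the log2 fold change was −1.94. Aph1b was not ordered as Nsd2 was among the Nsd2 f/f libraries, because replicate 3 had the least Nsd2 and the most Aph1b. In bulk cells, fewer cells with a transcript and less of it in each cell cannot be told apart.

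**Figure D1:**
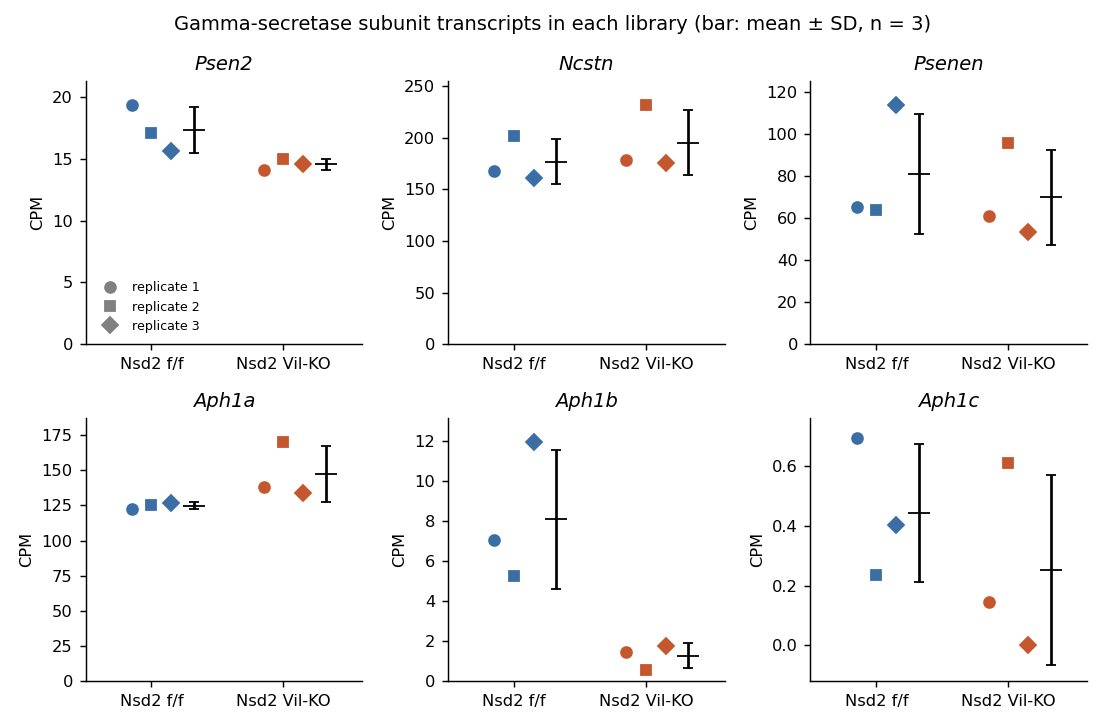
Level of each of the 6 subunit genes in CPM (y axes, linear, each with its own range) by genotype (x axis). Each symbol is 1 library, with circle, square and diamond for replicates 1, 2 and 3, and the black bar gives the mean ± SD (n = 3). The groups of Aph1a, Psen2 and Aph1b do not overlap, and those of Ncstn, Psenen and Aph1c do.

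The partners of Aph1b were examined next. None of the 4 that could be tested passed the screening criterion of the study, a fold change above 1.2 with a p below 0.05. That p was read here as unadjusted, although the study's methods name an adjusted p below 0.05 for the genes taken further. Over all genes, 482 of 14650 (3.29%) passed it, 241 (1.65%) higher and 241 (1.65%) lower in Nsd2 Vil-KO. At an adjusted p below 0.05 (Benjamini-Hochberg), edgeR called 0 of 14650 genes and DESeq2 called 4, while 482 lay below 0.05 in edgeR before adjustment.

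Aph1a, the scaffold of most APH1-containing complexes, was at 122.2, 125.3 and 127.0 CPM in the Nsd2 f/f libraries. The Nsd2 Vil-KO libraries had 138.5, 170.5 and 133.8 CPM. All 3 of the latter lay above all 3 of the former (two-sided exact permutation p = 0.1, the smallest that 3 against 3 libraries allow). CPM did not overlap in 9.90% of all genes tested, with Nsd2 Vil-KO higher in 5.21% and lower in 4.7%. The log2 fold change was 0.24 (SE 0.17, 95% interval −0.17 to 0.65), and edgeR's quasi-likelihood test gave an unadjusted p of 0.205 (adjusted p = 0.992). As a ratio, the interval ran from 10.9% lower (−10.9%) to 56.8% higher. The Nsd2 f/f libraries lay within 5 CPM of each other, and the distance between the groups was carried mainly by Nsd2 Vil-KO replicate 2, without which the log2 fold change was 0.13. In the 4 libraries that did not stand apart it was 0.15. Car14 shares 445 exon bases with Aph1a on the opposite strand and had 26 reads in the 6 libraries together.

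Aph1c, the near copy of Aph1b, lay near the floor of detection. The Nsd2 f/f libraries held 14, 4 and 5 reads of it, and the Nsd2 Vil-KO libraries 3, 11 and 0 reads. The groups overlapped, and Aph1c did not pass the filter on low counts, so no test was made. Summed over the group, 23 reads were counted in Nsd2 f/f (95% Poisson interval 14.6 to 34.5) and 14 in Nsd2 Vil-KO (7.65 to 23.5). These intervals cover counting error only, not the spread between libraries. The difference of the mean log2 CPM of Aph1c was −0.93, and −1.64 in the 4 libraries without Xist. The same sums for Aph1b were 379 (341.8 to 419.1) and 74 (58.1 to 92.9). Of the reads of both paralogs, Aph1b held 91.0%, 95.7% and 96.7% in the Nsd2 f/f libraries and 90.9%, 47.6% and 100% in the Nsd2 Vil-KO libraries. The low share was that of Nsd2 Vil-KO replicate 2, which had 21 reads of both (95% exact interval 25.7 to 70.2%), and the other 5 libraries lay at 90.9% or above. With the reads of Aph1b and Aph1c summed as 1 gene, the log2 fold change was −2.49.

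Psen2 encodes a presenilin, the catalytic subunit. The Nsd2 f/f libraries were at 19.4, 17.1 and 15.7 CPM, and the Nsd2 Vil-KO libraries at 14.1, 14.98 and 14.6 CPM. All 3 Nsd2 Vil-KO values lay below the lowest Nsd2 f/f value, by a gap of less than 1 CPM (two-sided exact permutation p = 0.1). The log2 fold change was −0.26 (SE 0.20, 95% interval −0.74 to 0.22), and edgeR's quasi-likelihood test gave an unadjusted p of 0.248 (adjusted p = 0.992). In the 4 libraries without Xist it was −0.34. Limma-voom with quality weights alone brought Psen2 past the criterion, at −0.32, where 9.83% of all genes passed.

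Ncstn encodes nicastrin, the large subunit that receives substrates. Its level was 167.6, 201.3 and 160.7 CPM in the Nsd2 f/f libraries, against 178.6, 231.7 and 175.3 CPM in the Nsd2 Vil-KO group. The groups overlapped, with replicate 2 the highest in both. The log2 fold change was 0.14 (SE 0.20, 95% interval −0.33 to 0.62; edgeR, unadjusted p of 0.494, adjusted p = 0.993). It was −0.05 in the 4 libraries without Xist and with limma-voom. Exons of Copa cover 4.91% of the exons of Ncstn on the opposite strand, and whether the counting used strand is not given in the sources used here.

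Psenen encodes PEN-2, the smallest subunit. Its level was 65.2, 64.0 and 113.8 CPM in the Nsd2 f/f group and 60.7, 95.5 and 53.2 CPM in the Nsd2 Vil-KO group. The groups overlapped, and the highest library of each was the one that stood apart. The log2 fold change was −0.21 (SE 0.32, 95% interval −0.96 to 0.54; edgeR, unadjusted p of 0.524, adjusted p = 0.993), and it was 0.11 without Nsd2 f/f replicate 3. In the 4 libraries without Xist it was −0.17. U2af1l4 and Gm49396 share 119 and 111 exon bases with Psenen on the opposite strand.

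**Figure D2:**
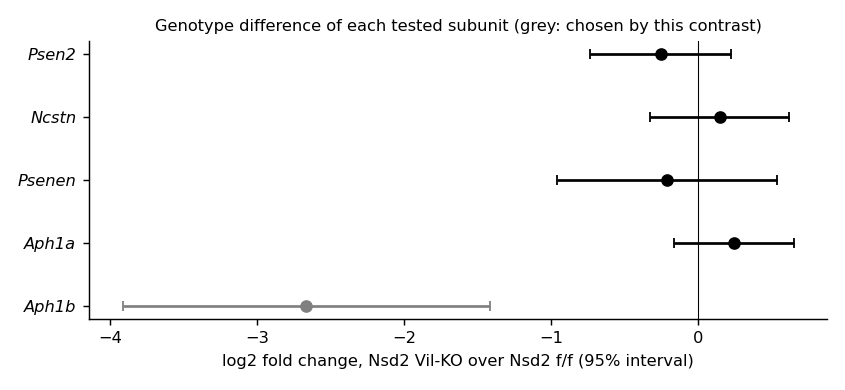
Log2 fold change of Nsd2 Vil-KO over Nsd2 f/f (x axis) for the 5 subunit genes that passed the filter on low counts (y axis), from edgeR with 3 libraries per genotype. Points are estimates and bars 95% intervals, and Aph1b is grey because this contrast chose it. The intervals of Psen2, Ncstn, Psenen and Aph1a include 0.

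The intervals bound how large a partner's difference could be. They reached a gain of 56.8% for Aph1a, 53.5% for Ncstn, 45.1% for Psenen and 16.8% for Psen2. Counts were simulated with the estimated spread of each gene, drawn gene by gene, so deviations that a library shares across genes were not kept. Of the unchanged genes, 5.11% had an unadjusted p below 0.05 in edgeR, against 3.29% of all genes in the data. With 14248 genes tested, 62.8% of the genes given a log2 change of 1 passed the screening criterion and 0% passed adjustment. That change lies outside the interval of each partner, so this share does not say how often a difference inside those intervals would pass. The intervals hold differences of either sign, so a p above the threshold does not show that a partner was unchanged.

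Levels of different genes were compared per length, as FPKM over annotated exons. All annotated exons of a gene were merged, giving 3450 bases for Aph1a and 5163 for Aph1b. Which transcripts were expressed was not examined, so comparisons between genes depend on these lengths. Averaged over the 6 libraries, Psenen had 59.1 FPKM, Ncstn 46.8, Aph1a 39.5, Psen2 3.69, Aph1b 0.904 and Aph1c 0.0669 FPKM. Psenen, Ncstn and Aph1a stood above at least 90.2% of the genes tested, Psen2 above 44.6% and Aph1b above 19.5%. The neighbours Psenen and Ncstn were not separated, since Ncstn was the higher in 2 of 6 libraries. Aph1a was below Ncstn in 6 of 6 libraries, at 0.717 to 0.911 of its level, although their ranges over libraries overlapped. Psen2 was 7.92 to 14.3 times lower than Aph1a across the libraries, and no library of Aph1b reached Psen2.

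The APH1 scaffold was then taken as a pool of 3 genes, whose shares depend on the same lengths. Aph1b made up 3.69%, 2.73% and 5.91% of the summed APH1 FPKM in the Nsd2 f/f libraries, and 0.700%, 0.216% and 0.860% in the Nsd2 Vil-KO libraries. This was a mean share of 4.11% ± 1.63 (SD, n = 3) against 0.592% ± 0.335 (SD, n = 3), while Aph1a held 95.7% and 99.3%. The summed level was 36.9, 37.4 and 39.2 FPKM in Nsd2 f/f and 40.4, 49.6 and 39.1 FPKM in Nsd2 Vil-KO. Its means were 37.8 ± 1.21 and 43.1 ± 5.73 FPKM (SD, n = 3), and the groups overlapped at Nsd2 f/f replicate 3 and Nsd2 Vil-KO replicate 3. The loss of Aph1b came to 1.32 FPKM. That is 3.66% of the Aph1a level in Nsd2 f/f, so a log2 difference of 0.05 in Aph1a would equal it, which is smaller than the standard error of 0.17 on Aph1a. The loss was 15.5 times the Aph1c level in Nsd2 f/f. Aph1a itself was 6.60 FPKM higher on average in Nsd2 Vil-KO, a difference that did not pass the test. Whether the pool was made up by Aph1a could not be resolved at this spread. The reads of Aph1c were too few for either direction to be called.

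**Figure D3:**
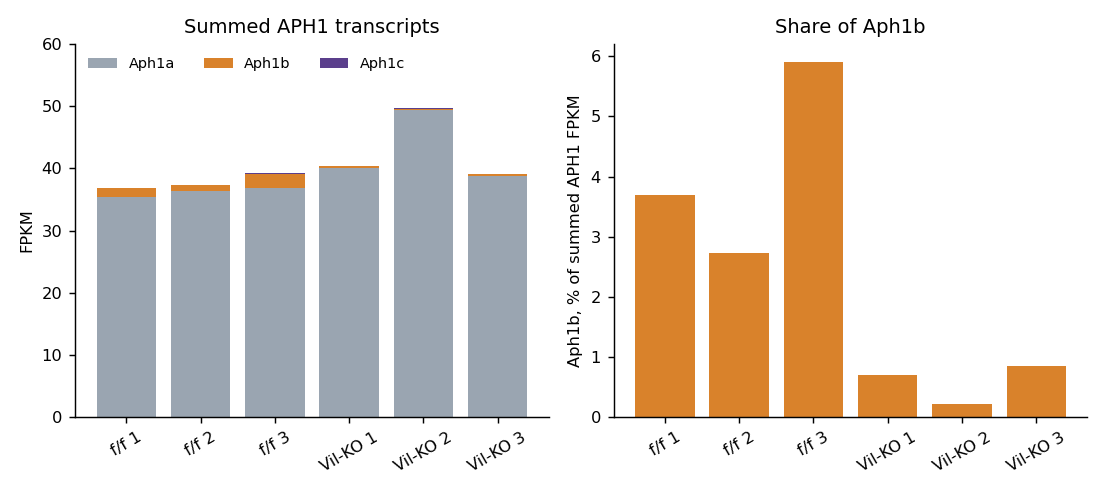
Left, FPKM of Aph1a, Aph1b and Aph1c stacked for each library (x axis), with f/f for Nsd2 f/f and the replicate number after it. Right, Aph1b as a percentage of the summed APH1 FPKM, which is 2.73% to 5.91% in the Nsd2 f/f libraries and 0.216% to 0.860% in the Nsd2 Vil-KO libraries.

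Genes that work with gamma-secretase were read from lists. Among 8 tested modulators of the complex, 0 of 8 passed the criterion in edgeR (median log2 fold change −0.03, against 0.00 for all genes tested). Rer1, which retains unassembled subunits early in the secretory route, had 157.9 to 225.6 CPM in Nsd2 Vil-KO and 180.0 to 231.0 CPM in Nsd2 f/f. Of the signal peptide peptidases, the presenilin relatives, 0 of 3 tested passed (median 0.06). Over all genes 3.29% passed, and lists this short cannot tell 0 from that share.

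Sheddases cut the ectodomain before gamma-secretase acts, and 2 of 12 tested genes of this list passed, 1 in each direction (median 0.15), against 3.29% of all genes. Rhbdf1, which encodes the ADAM17 partner iRhom1, was at 30.9, 27.8 and 19.95 CPM in the Nsd2 f/f libraries and at 43.9, 77.7 and 35.7 CPM in the Nsd2 Vil-KO group. It rose by 1.00 on the log2 scale (SE 0.33, unadjusted p = 0.0190 and adjusted p = 0.992 in edgeR). The value was 0.45 in the 4 libraries without Xist, 0.49 with limma-voom and 0.60 without Nsd2 Vil-KO replicate 2, and the call was lost without Nsd2 f/f replicate 3, at 0.84. Tspan33, which encodes a tetraspanin that escorts ADAM10, was at 24.9, 22.1 and 28.7 CPM in Nsd2 f/f and at 17.6, 10.9 and 17.8 CPM in Nsd2 Vil-KO. It fell by 0.71 (SE 0.26, unadjusted p = 0.0273, adjusted p = 0.992 in edgeR), and the call was lost without Nsd2 f/f replicate 1 (−0.72) or 3 (−0.61) and with scaling by library size only (−0.61). It was −0.40 in the 4 libraries without Xist and −0.44 with limma-voom. The proteases themselves did not pass. Adam10, which cuts Notch, had a log2 fold change of 0.25 (SE 0.19), and Adam17 one of 0.00 (SE 0.28).

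Substrates numbered 40 tested genes, of which 2 passed, 1 in each direction (median 0.11), a share near the 3.29% of all genes. Jag2, a Notch ligand, was at 4.11, 2.42 and 1.62 CPM in Nsd2 f/f and at 6.34, 9.21 and 4.60 CPM in Nsd2 Vil-KO. It rose by 1.28 on the log2 scale (SE 0.46, unadjusted p = 0.0270, adjusted p = 0.992 in edgeR). The call was lost when replicate 2 (1.196) or 3 (1.03) of Nsd2 f/f, or replicate 1 (1.32) or 2 (0.98) of Nsd2 Vil-KO, was left out, and in the 4 libraries without Xist (0.73). It was 0.85 with limma-voom and 0.49 on log2(FPKM + 1). Tgfbr1, the type I TGF-beta receptor, was at 20.7, 21.7 and 18.9 CPM in Nsd2 f/f and at 9.02, 13.5 and 11.95 CPM in Nsd2 Vil-KO. It fell by 0.83 (SE 0.23, unadjusted p = 0.00901, adjusted p = 0.992 in edgeR), and the call held in 20 of 20 alternatives, at −1.01 in the 4 libraries without Xist. The study lists primers for Rhbdf1 and Tgfbr1, and their direction is not taken as independent evidence, since it may have chosen them on these samples.

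**Figure D4:**
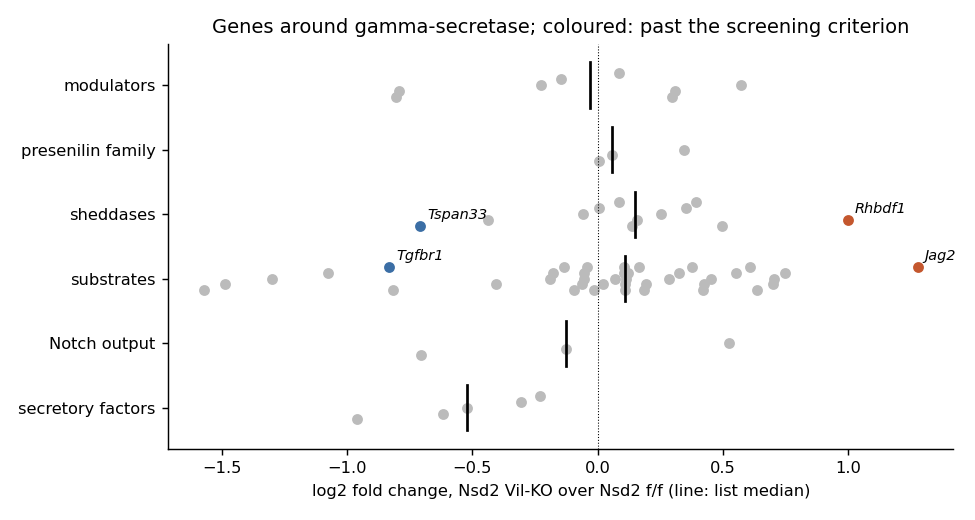
Log2 fold change of Nsd2 Vil-KO over Nsd2 f/f (x axis) for the tested genes of 6 lists around gamma-secretase (y axis). Each point is 1 gene, the short vertical line is the list median, and orange and blue mark genes that passed the screening criterion higher and lower. The 4 named genes passed, in the lists of sheddases and substrates.

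Notch signalling downstream of the complex gave no gene past the criterion in the fit of all 6 libraries with edgeR. Of 3 tested genes of Notch output, 0 of 3 passed (median −0.12). Of 5 tested secretory fate factors, 0 of 5 passed (median −0.52), against 3.29% of all genes. Notch1 was at 21.2, 20.03 and 7.11 CPM in Nsd2 f/f and at 21.6, 9.43 and 24.4 CPM in Nsd2 Vil-KO, with its lowest values in the 2 libraries that stood apart. Hes1, a repressor that Notch switches on, had a log2 fold change of −0.12 (SE 0.24, unadjusted p = 0.617 in edgeR). Atoh1, the factor of secretory fate that Hes1 represses, was at 99.6, 84.2 and 80.8 CPM in Nsd2 f/f and at 70.2, 40.3 and 73.5 CPM in Nsd2 Vil-KO. Its groups did not overlap, as in 9.90% of all genes tested, with Nsd2 Vil-KO lower in 4.7%. The log2 fold change of Atoh1, −0.52 (SE 0.26), had an unadjusted p of 0.0796 in edgeR. All 5 secretory factors had negative log2 fold changes, also under each other scaling, although Spdef was above 0 without Nsd2 f/f replicate 1. With limma-voom 3 of them passed as lower, and 3 in the 4 libraries without Xist, where 9.83% and 11% of all genes passed. Without Nsd2 f/f replicate 3, 2 passed as lower, where 515 of 15222 genes passed. With Xist as a covariate 1 did, where 1145 of 14650 genes passed.

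Summed markers of some cell types differed between the genotypes without overlap, and those of others overlapped. Over all single genes tested, 9.90% did not overlap and 3.29% passed the criterion. The summed level of 7 goblet markers was 14098 to 16375 CPM in Nsd2 f/f and 9866 to 11062 CPM in Nsd2 Vil-KO, without overlap, and 1 of the 7, Clca1, passed the criterion as lower. That of 6 tuft cell markers was 7.09 to 12.4 CPM against 19.97 to 41.0 CPM, also without overlap, with Avil and Sh2d6 passing as higher and Gng13 at 3 counts or fewer in each library. That of 7 enteroendocrine markers was 109.5 to 169.5 CPM against 97.4 to 104.5 CPM, again without overlap. That of 6 markers of enteric glia and neurons was 1.005 to 2.13 CPM against 0.388 to 1.07 CPM, so that the groups overlapped, with Sox10 at 3 counts or fewer in each library. The sums of 12 immune markers (30.1 to 759.8 against 67.9 to 1000.3 CPM) and 11 markers of stroma and endothelium (9.86 to 271.5 against 8.65 to 80.1 CPM) overlapped between the genotypes. Of the 10 tested markers of stroma and endothelium, 10 had negative log2 fold changes (median −1.34), and Pecam1 passed the criterion as lower. By library, the sum of the 11 was 271.5, 73.0 and 9.86 CPM in Nsd2 f/f and 80.1, 8.65 and 20.9 CPM in Nsd2 Vil-KO. Nsd2 f/f replicate 1 was thus far above the others. Of the 12 immune markers, 3 were above 0 (median −0.53). The part of these cell types in the values of Aph1b and of the other subunits was not tested.

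The genes around Aph1b on chromosome 9 were examined because position was not used to choose it. Within 500 kb there were 22 other genes, 10 of which passed the filter, and 0 of 10 passed the criterion in edgeR, against 3.29% of all genes. The closest tested gene was Car12, 8.36 kb from Aph1b, which encodes a carbonic anhydrase and had 17.9 to 51.1 CPM in Nsd2 f/f and 52.1 to 95.7 CPM in Nsd2 Vil-KO. Its groups did not overlap, in the direction opposite to Aph1b, and its log2 fold change was 0.88 (SE 0.41, unadjusted p = 0.0712 in edgeR). The pseudogene Ppp1r2-ps4, 9.82 kb from Aph1b and between it and Aph1c, had the lowest value, −0.71 (SE 0.65). The other 8, Herc1, Fbxl22, Usp3, Rab8b, Rps27l, Lactb, Tpm1 and Tln2, lay between those values, and 4 of the 10 were above 0. In the 4 libraries without Xist, where 11% of all genes passed, 1 neighbour other than Car12 passed as lower. Car12 passed as higher with a replicate block and with Xist as a covariate.

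**Figure D5:**
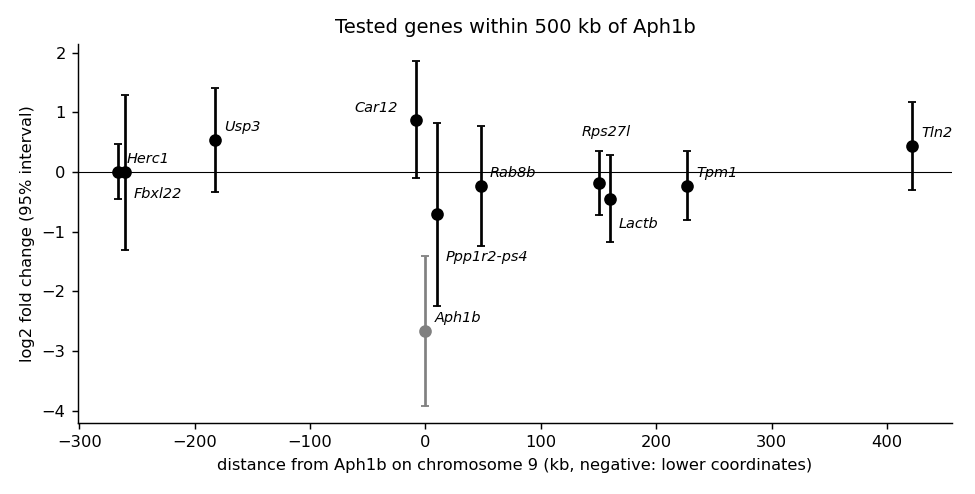
Log2 fold change of Nsd2 Vil-KO over Nsd2 f/f with its 95% interval (y axis) for the tested genes within 500 kb of Aph1b, by distance from Aph1b in kb (x axis). Aph1b, in grey, was chosen by this contrast at −2.67, and the intervals of the 10 other genes include 0.

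The tested genes whose log2 CPM followed that of Aph1b most closely over the 6 libraries were Fmo2 (Pearson r = 0.998), Fgf18 (0.998), Slc30a6 (0.986), Polr2l (0.984) and Fam126a (0.983). These coefficients were picked as the highest of 14650, over libraries that share genotype and the 2 libraries that stood apart, and they are descriptions. Fgf18, a growth factor, had 0.892, 0.709 and 1.62 CPM in Nsd2 f/f and 0.0975, 0 and 0.153 CPM in Nsd2 Vil-KO, with its values in Nsd2 Vil-KO at or below the floor of 3 counts. Fmo2 had 1.64, 1.30 and 1.94 CPM against 0.780, 0.499 and 0.817 CPM, a fitted log2 fold change of −1.19 (SE 0.43). The study itself reports Fmo2 as lower in Nsd2 Vil-KO mice, from its sequencing and from qPCR. Slc30a6, a zinc transporter gene, was at a much higher level and spanned only 21.4 to 28.6 CPM, so a near-perfect correlation came with a small difference.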

How the data were processed

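RNA-seq was analysed in 3 Nsd2 f/f and 3 Nsd2 Vil-KO libraries of colon IECs from DSS-treated mice, grouped by their labels. The deposited table holds read counts per gene as whole numbers, neither normalised nor filtered by the authors. Per the study's methods, reads were trimmed with Cutadapt and Trimmomatic and aligned with HISAT2 to GRCm38; the processing notes in the labels name HISAT2 and mm10. The counting program and its strand setting are not given in the sources used here, and the labels and methods name different library kits.

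CPM and FPKM were computed from the deposited counts, FPKM with exon lengths of GENCODE vM21 (GRCm38), in which 99.4% of the 55487 IDs were found. Library totals were 15439123 to 20350539 (median 18209316). Counts were compared in R 4.3.3 with edgeR 4.0.16 (TMM, filterByExpr, quasi-likelihood test with robust estimation, 14650 genes) and Benjamini-Hochberg adjustment. The quasi-dispersion estimate was settled after counts of calls under 4 combinations of edgeR options had been seen, and the current one was kept because an earlier analysis of these counts had used it. It gave 482 calls and the older estimate 434, and without robust estimation these were 492 and 445. Exact permutation tests covered the 10 ways to part 6 libraries into 3 and 3. The fit was tested on simulated counts. Alternatives used DESeq2 1.42.0 and limma 3.58.1, and figures matplotlib 3.10.9.

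The members and lists were chosen with earlier results of these data known. Named genes were Nsd2, the 6 members, list genes past the criterion (at most 4 a list), defining genes of lists (Rer1, Adam10, Adam17, Notch1, Hes1, Atoh1), tested genes within 500 kb of Aph1b and the 5 genes most correlated with it. The marker genes Clca1, Avil, Sh2d6, Gng13, Sox10 and Pecam1 were named after their values were seen. Not every gene of the complex and of the marker lists is reported here.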

Additional observations from a re-analysis of the deposited data

How the results depend on the processing

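Aph1a, Psen2 and Aph1b kept their direction in all alternatives run. Aph1b was chosen by that direction in these same libraries. The groups of these genes did not overlap in CPM, so leaving out a library could hardly reverse them. Aph1b moved from −2.67 to −1.94 in the 4 libraries without Xist and to −1.02 on log2(FPKM + 1), where the added 1 compresses low genes. Psen2 passed the criterion with limma-voom (−0.32). Ncstn reversed with limma-voom and in the 4 libraries without Xist (−0.049 in both) and Psenen without Nsd2 f/f replicate 3 (0.11), and the cause was not tested. Leaving out 1 library at a time, log2 fold changes ranged from 0.13 to 0.31 for Aph1a, −0.32 to −0.17 for Psen2, 0.0044 to 0.25 for Ncstn, −0.51 to 0.11 for Psenen, −2.97 to −2.28 for Aph1b and −1.63 to −0.28 for Aph1c, and the summed APH1 level from 0.07 (without Nsd2 Vil-KO replicate 2) to 0.24. Aph1c could be fitted only without the filter, at −0.89.

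Genes past the criterion numbered 861 without the filter, 1440 with limma-voom, 1646 in the 4 libraries without Xist and 1145 with Xist as a covariate. With each library left out they ranged from 323 of 15107 (without Nsd2 f/f replicate 2) to 769 of 15139 (without Nsd2 Vil-KO replicate 2). List counts were, with limma-voom (9.83% of all genes passing), 2 modulators, 1 gene of the presenilin family, 7 substrates and 3 secretory factors. Of these, 1 modulator, 6 substrates and the presenilin relative were higher and the rest lower. In the 4 libraries 1646 of 15030 genes passed (11%). Among them were 3 modulators, 1 of the presenilin family, 10 substrates, 3 secretory factors and 1 neighbour of Aph1b. Here 1 modulator, 6 substrates and the presenilin relative were higher and the rest lower. Sheddases stayed at 2 with limma-voom and in the 4 libraries, 1 in each direction. With Xist as a covariate 1145 of 14650 genes passed. The list counts there were 1 of the presenilin family, 3 sheddases, 4 substrates, 1 secretory factor and 1 neighbour (Car12). Of the 3 sheddases 1 was higher and 2 were lower. There was 1 sheddase with library size only and 1 gene of Notch output without the filter. Leaving out each library gave 0 to 1 modulators, 0 to 1 of the presenilin family, 0 to 3 sheddases (0 without Nsd2 f/f replicate 3), 1 to 5 substrates (1 without Nsd2 f/f replicate 2 or Nsd2 Vil-KO replicate 2, 5 without Nsd2 f/f replicate 1) and 0 to 2 secretory factors. The 3 combinations of edgeR options added after the data were seen changed no list count and no member's call.

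Whether the replicate numbers pair the libraries could not be told. Correlations of same-numbered deviations from the group means were 0.32, −0.35 and −0.11. The 2 libraries that stood apart have different numbers and shift the deviations of their whole group. With a replicate block, 303 genes passed the criterion, 1 neighbour (Car12, 0.98) passed, and Aph1a was at 0.23, Psen2 at −0.25, Ncstn at 0.14 and Psenen at −0.20, none past it. Aph1c and the lowest levels of Aph1b rest on few reads, and 3 libraries a group with this spread limit each difference.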
